A study of Mus musculus with 56 samples.

Results

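The genes described here encode 10 proteins that the liver secretes into plasma. They are albumin (Alb), transthyretin (Ttr), the apolipoproteins A-I, A-II and C-III (Apoa1, Apoa2, Apoc3), fetuin-A (Ahsg), the 3 fibrinogen chains (Fga, Fgb, Fgg) and haptoglobin (Hp). They were found by name among the 20018 genes named on the array, and all 10 were present. Each gene is represented by 1 probe per tissue, the one with the brightest mean Cy5 signal there.

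The arrays held RNA from adult male Muta™Mouse animals of about 14 weeks, a transgenic line used to score mutations. Dosing was by daily gavage over 28 days. D0 mice were given the olive oil vehicle, and the others received chrysene, which is a polycyclic aromatic hydrocarbon, dissolved in it. Groups D1, D2 and D3 were given 17.5, 50 and 150 mg per kg body weight each day. Lung, liver and forestomach were taken 72 hours after the last dose. All groups shared the strain, the sex, the vehicle and the handling. There were 5 mice at D0, 5 at D1, 4 at D2 and 5 at D3, except that lung at D2 had 3, which gave 56 arrays from 19 mice with 1 array per mouse and tissue. The values below are log2 ratios of the sample (Cy5) over a universal mouse reference RNA (Cy3) measured on the same array.

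Hepatocytes make most plasma proteins, and the genes for them are among the most abundant transcripts of the liver. Albumin holds water in the circulation, transthyretin carries thyroid hormone and retinol-binding protein, and the apolipoproteins form lipoprotein particles. Fetuin-A keeps calcium phosphate in solution, fibrinogen forms the clot, and haptoglobin binds free haemoglobin. In an acute phase response, interleukin 6 acting through STAT3 and C/EBP factors raises fibrinogen and haptoglobin while albumin, transthyretin and fetuin-A fall. The factors HNF1 and HNF4, FOXA and C/EBP are known to keep such genes active in hepatocytes.

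Promoter sequences are shown for the members whose levels moved together in forestomach (Alb, Ahsg, Fgb, Fgg), for Fga, the neighbour of Fgb and Fgg on chromosome 3, and for Apoa1, which followed another order of mice there. They are the 250 bases before the annotated start site from RefSeq on GRCm38.p6, read 5′ to 3′ on the strand of the gene. Capitals mark matches, on either strand, to 5 short motifs. The core of the HNF1 motif was searched as GTTAAT and the C/EBP motif as TTGCNNAA. The STAT motif, which reads the same on both strands, was searched as TTCNNNGAA. The interleukin 6 response element was searched as CTGGGAA and the TATA box as TATAAA. No 2 matches in these 6 windows overlapped. Alb lies at chr5:90460620-90460869 (plus strand), Ahsg at chr16:22891765-22892014 (plus strand), Fga at chr3:83025903-83026152 (plus strand), Fgb at chr3:83049864-83050113 (minus strand), Fgg at chr3:83007474-83007723 (plus strand) and Apoa1 at chr9:46228380-46228629 (plus strand).
Alb: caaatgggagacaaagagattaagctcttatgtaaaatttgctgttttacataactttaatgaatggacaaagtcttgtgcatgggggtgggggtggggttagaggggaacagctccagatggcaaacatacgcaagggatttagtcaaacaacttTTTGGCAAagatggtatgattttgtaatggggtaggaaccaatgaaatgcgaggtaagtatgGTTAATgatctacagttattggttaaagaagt
Ahsg: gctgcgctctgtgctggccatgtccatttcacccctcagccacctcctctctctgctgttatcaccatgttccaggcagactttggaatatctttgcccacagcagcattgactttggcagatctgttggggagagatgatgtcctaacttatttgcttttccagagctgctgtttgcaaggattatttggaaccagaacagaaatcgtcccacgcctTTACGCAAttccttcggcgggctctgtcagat
Fga: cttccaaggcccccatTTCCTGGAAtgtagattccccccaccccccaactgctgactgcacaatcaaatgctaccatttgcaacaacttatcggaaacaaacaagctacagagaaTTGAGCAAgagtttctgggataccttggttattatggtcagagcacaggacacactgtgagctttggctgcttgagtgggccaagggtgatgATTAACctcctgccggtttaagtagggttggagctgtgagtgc
Fgb: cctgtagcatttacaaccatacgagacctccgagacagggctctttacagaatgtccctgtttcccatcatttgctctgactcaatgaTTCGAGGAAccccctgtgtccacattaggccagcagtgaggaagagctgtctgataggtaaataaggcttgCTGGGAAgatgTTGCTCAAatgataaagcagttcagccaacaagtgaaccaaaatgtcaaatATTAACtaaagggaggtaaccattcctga
Fgg: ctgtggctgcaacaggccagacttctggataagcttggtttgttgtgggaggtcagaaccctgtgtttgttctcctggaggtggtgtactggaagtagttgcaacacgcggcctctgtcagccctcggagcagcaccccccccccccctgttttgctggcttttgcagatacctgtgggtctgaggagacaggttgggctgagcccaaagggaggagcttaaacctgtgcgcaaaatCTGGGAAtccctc
Apoa1: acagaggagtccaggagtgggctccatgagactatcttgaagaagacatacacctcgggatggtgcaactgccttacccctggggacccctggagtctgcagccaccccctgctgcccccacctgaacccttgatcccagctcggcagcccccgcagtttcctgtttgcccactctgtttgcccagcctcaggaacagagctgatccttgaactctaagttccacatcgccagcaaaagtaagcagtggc
For Ttr, Apoc3 and Hp no promoter is shown.

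Promoters were at hand for 7 of the 10 members, 8 windows in all since Apoa2 has 2 start sites. GTTAAT stood in 3 of the 8 windows, in Alb 32 bases, in Fga 43 bases and in Fgb 29 bases before the start site, and in 6.43% of the 32851 windows of the same length in the table. TTGCNNAA stood in 5 of the 8 windows and in 9.56% of all windows. TTCNNNGAA stood in 2 (Fga and Fgb) and in 7.02% of all, CTGGGAA in 2 (Fgb and Fgg) and in 9.1% of all, and TATAAA in 1 (Apoa2) and in 12.4% of all. In Fgg the CTGGGAA match lay 13 bases before the annotated start site. None of the 5 motifs was found in the Apoa1 window. These matches describe letters in a window and were not tested for binding.

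The labelled tissues carried their markers. The mean log2 ratio of 15 hepatocyte genes lay between 6.73 and 7.15 on the liver arrays, with all 15 genes well above background, and that of 8 alveolar type 2 genes lay between 5.39 and 5.85 in lung. The mean of 11 keratinocyte genes lay between 3.39 and 5.61 in forestomach, whose lining is a squamous epithelium. In lung the arrays of mouse 17 and mouse 19, both D3, stood apart with skeletal muscle means of 5.46 and 5.24 against -0.18 or less on the other lung arrays. The forestomach arrays differed widely in a list of 10 glandular stomach genes, from 0.25 to 7.28. The share of spots well above background was 34.5% to 46.4% in liver, 49% to 56.7% in lung and 18.9% to 51.7% in forestomach. In forestomach it was 40.4% to 51.7% on slide 3 and 18.9% to 34.9% on slides 1 and 2. Counts of forestomach arrays or genes well above background may therefore depend on the slide.

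Each member was bright in liver. The Cy5 signal of Alb ranged from 171126 to 392189 scanner units over the 19 liver arrays, that of Apoa2 from 204283 to 376985 and that of Fga, the dimmest member there, from 14213 to 37273. No member value was saturated. In lung the median Cy5 signal of Alb was 85.25, of Ttr 79.5, of Apoa1 75.45, of Apoc3 77.5, of Fgb 81.5 and of Fga 76.25, all close to the floor of the scanner. Hp was the exception, with 74192 to 154024 in lung against 102577 to 255131 in liver.

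The reference channel did not stay constant between tissues for these probes. The median Cy3 signal of Alb was 13152.5 on liver arrays, 47.5 on lung arrays and 52 on forestomach arrays, although the labels give the same reference RNA for all of them. For Ahsg the medians were 16640.5, 60 and 71, and for Apoa2 59475, 799 and 1050.5. Over the 10 members the Cy3 median on liver arrays was 3.89-fold (Hp) to 277-fold (Alb and Ahsg) that on lung arrays. Over all 32708 probes compared between liver and lung the median of this fold was 1.43, and 1.67% of them exceeded 4-fold. Among the members, all but Hp exceeded 4-fold. The source of the Cy3 signal was not tested, and each tissue was on its own slides. A log2 ratio therefore understates how far a liver array exceeds a lung or forestomach array for these genes, and the Cy5 signal is given beside it. With no dye swap, the Cy5 signal alone can carry dye bias.

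**Figure D1:**
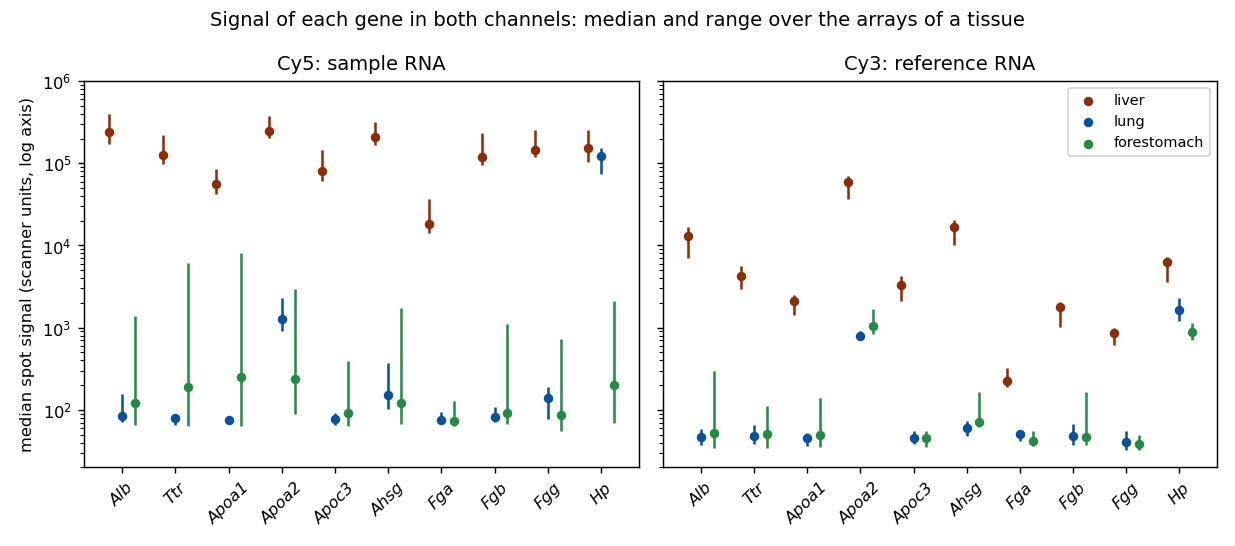
Median spot signal of the 10 genes (scanner units, log axis) in Cy5, the sample, and Cy3, the reference, on the liver, lung and forestomach arrays; points are medians over the arrays of a tissue and lines the range, with the liver probe of each gene used throughout. Cy3 for Alb was 13152.5 on liver arrays and 47.5 on lung arrays, and Hp is the gene whose Cy5 signal in lung overlapped that in liver.

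Without chrysene, 10 of the 10 members were higher in liver than in forestomach, and 9 of 10 were higher in liver than in lung, by limma at a change of 1.5-fold or more and a P, adjusted by Benjamini-Hochberg, no higher than 0.05. Of all probes, 41% passed in either direction and 19% in the direction of liver against forestomach, and 46% and 21.1% against lung. Of the 9 members higher than in lung, 6 (Alb, Ttr, Apoa1, Apoc3, Fga, Fgb) were dim on all 5 lung arrays at D0 and came into the test through liver, as Fga did against forestomach, so that nothing is read from their calls. The fit covered all 3 tissues and shared 1 estimate of the spread per probe, so the spread in forestomach enters the errors of liver against lung. At D0 (n = 5 in each tissue) Alb had a log2 ratio of 6.39 ± 0.26 (SD) in liver, 0.26 ± 0.23 in lung and 0.88 ± 0.71 in forestomach. In bulk tissue fewer cells of a type and less RNA per cell cannot be told apart. Nor can tissue and slide, since each tissue was on its own slides. The size of the Alb difference between liver and lung is given below as a bound.

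The 4 members measured on lung arrays at D0 have differences in log2 ratio. Liver exceeded lung by 8.23 ± 0.37 (SE) for Fgg, a chain of fibrinogen that was well above background on 3 of the 5 lung arrays. For Ahsg the difference was 5.27 ± 0.43 and for Apoa2 4.21 ± 0.23, both measured on all 5, and the fourth gene is Hp. The size for Apoa2 depended on the probe, as its other probe had D0 means of 6.78 in liver and -0.098 in lung. Against forestomach, liver was higher by 4.45 for Apoa2, measured on all 5 arrays. Alb, Ahsg, Ttr, Apoa1, Fgb and Hp were measured there on 3 of 5 arrays at D0, and Fgg and Apoc3 on 2 of 5. In this mixture of measured and dim arrays the differences ran from 3.38 ± 0.84 (Apoa1) to 8.59 ± 0.37 (Fgg). Since Cy3 differed from gene to gene, the order of these values is not an order of the Cy5 gaps.

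For the other 6 members the lung side at D0 was not well above background on any of the 5 arrays, and only a bound can be given. On scanner Cy5 signals, neither normalized nor background subtracted, liver was at least 2910-fold higher than lung for Alb, at least 1690-fold for Ttr and at least 1580-fold for Fgb. The bound was 1080-fold for Apoc3, 694-fold for Apoa1 and 253-fold for Fga. Fga was also dim on all 5 forestomach arrays at D0, where liver was at least 275-fold higher. These folds set the mean log2 Cy5 of the 5 liver arrays against, on each dim array, the higher of the spot itself and the dimmest signal that counted as well above background. After loess and scaling between arrays the same quantities were larger, at 5950 for Alb and 503 for Fga, so the smaller ones are given as bounds. The scanner scale was chosen after the data were seen.

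**Figure D2:**
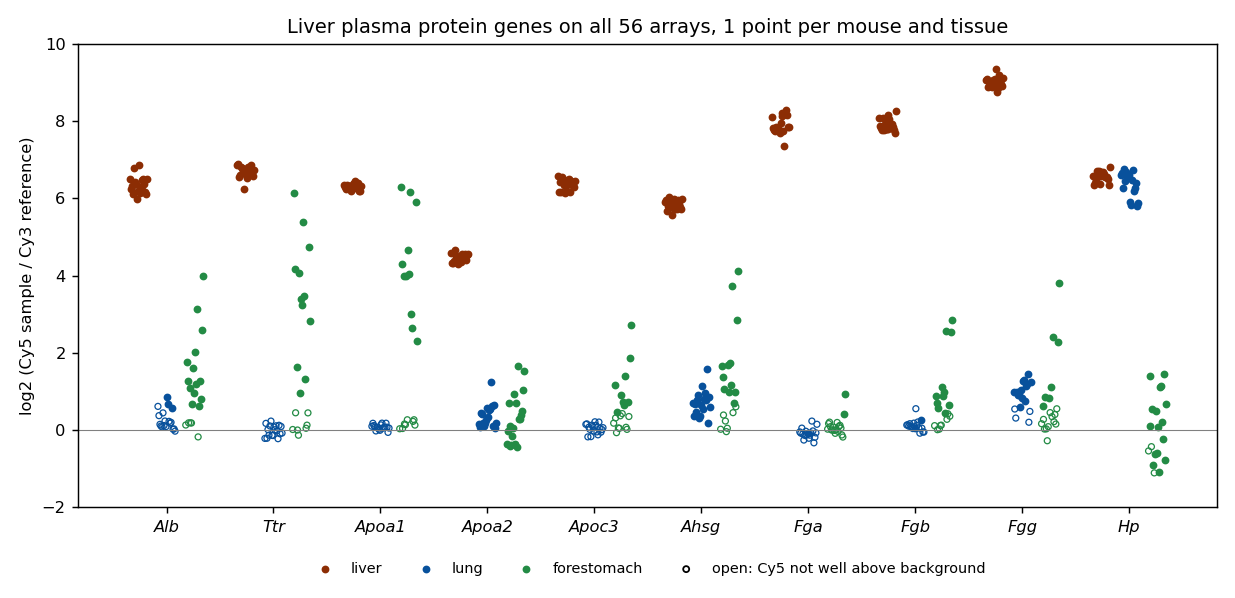
Log2 ratio of Cy5 over Cy3 of each gene on all 56 arrays, 1 point per mouse, in liver (19), lung (18) and forestomach (19); open points were not well above background, and the lung points of Fga are from its other probe, which was the brighter there. Liver values lie in narrow bands, lung lies at or below 1.59 for every gene but Hp, and forestomach ranges from near 0 to 6.30 for Apoa1.

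Haptoglobin did not follow the other members in lung. Its D0 log2 ratios were 6.57, 6.36, 6.40, 6.48 and 6.71 in liver (mice 1 to 5) and 6.60, 6.66, 6.27, 6.76 and 6.45 in lung. The 2 ranges overlapped, and the difference between liver and lung was -0.04 ± 0.32 (SE; 95% interval -0.68 to 0.59, adjusted P = 0.909). The pooled SD of Hp was 0.13 in liver, 0.30 in lung and 0.83 in forestomach. With the spread shared over the tissues, this interval is wider than liver and lung alone would give. On the Cy5 channel alone, an alternative chosen after the data were seen, liver was higher by 0.77 ± 0.31 (adjusted P = 0.024), which is past both limits. Over 28 alternatives the difference ran from -0.79 to 0.77, and 3 of them had the opposite sign to the main estimate. The reference signal of Hp differed between the tissues, with a Cy3 median of 6356 on liver arrays and 1633.25 on lung arrays. The D0 values in forestomach were -0.54, 1.39, 0.10, -0.43 and 0.56, and lung exceeded forestomach by 6.33 ± 0.32 (adjusted P = 1.30e-22). Hp was the only member that passed as higher in lung than in forestomach, where 37.6% of all probes passed in either direction and 19.3% in the direction of lung.

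Between lung and forestomach few other members passed. Apoa1 and Ttr passed as lower in lung, where both were dim on all 5 arrays at D0. They came into the test through forestomach, so that nothing is read from their calls, and without mouse 2 the call of Ttr was lost (adjusted P = 0.0529). On scanner Cy5 signals forestomach, where 3 of 5 arrays measured them, was at least 4.65-fold higher for Apoa1 and at least 3.52-fold for Ttr. These bounds average high and dim mice. Leaving out 1 mouse at a time moved them to between 2.29 (without mouse 2) and 7.37 (without mouse 1) for Apoa1, and to between 1.66 (without mouse 2) and 5.2 (without mouse 1) for Ttr. Of the genes measured in both tissues, Ahsg (-0.30 ± 0.43), Apoa2 (0.24 ± 0.24) and Fgg (0.35 ± 0.37) did not pass. The Apoa2 difference passed in opposite directions under 2 alternatives, at -1.10 with its other probe and at 2.27 with median centring (adjusted P = 0.000225). Alb, Apoc3 and Fgb did not pass and were dim on all 5 lung arrays at D0, where forestomach was at least 1.26-fold higher for Alb. With only the forestomach arrays of slide 3 in the fit, 7 members passed. Ahsg and Apoa2 were well above background on all 18 lung arrays at low signal, with median Cy5 values of 150 and 1276.25. The other Apoa2 probe was well above background on 10 of these 18 arrays, with a median Cy5 of 100.

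In liver the estimates for the members lay close to 0 at each dose of chrysene. At D1, D2 and D3 and for a linear trend over the dose steps, 0 of the 10 members passed limma's test in liver, where 0% of the 24698 probes tested passed. At an unadjusted P of at most 0.05, again 0 of 10 members passed in each of these 4 comparisons, against 3.61% (D1), 3.79% (D2), 4.79% (D3) and 5.43% (trend) of all probes. The D3 changes ran from -0.06 (Alb) to 0.21 (Fga) on the log2 scale, with a median of -0.00031 over the members and -0.0073 over all probes. Their 95% intervals together spanned -0.36 to 0.49. At D1 they spanned -0.34 to 0.28 and at D2 -0.42 to 0.31.

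Fga had the largest D3 estimate in liver. Its log2 ratios were 8.11, 7.81, 7.77, 7.73 and 7.86 at D0 (mice 1 to 5) and 8.18, 8.29, 8.17, 7.84 and 7.84 at D3 (mice 16 to 20). The groups overlapped, and the difference was 0.21 ± 0.13 (SE; 95% interval -0.07 to 0.49, unadjusted P = 0.137 and adjusted P = 1.00 as rounded). Within slides the difference was 0.42 on slide 1, 0.25 on slide 2 and -0.14 on slide 3. The other Fga probe, dimmer in liver with a median Cy5 of 2076, gave -0.34 at D3, so that the direction depended on the probe. For Fgb, whose chain is known to limit the assembly of fibrinogen, the D3 change was -0.02 ± 0.10, and for Fgg it was 0.08 ± 0.09.

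The spread between mice of the same dose was small in liver. The pooled SD of the log2 ratio was 0.075 for Apoa1, 0.108 for Apoa2, 0.132 for Hp, 0.134 for Ahsg and 0.244 for Alb. Apoa1 is printed as 10 spots on each array, whose SD within a liver array had a median of 0.061. The full range over the 19 liver mice was 1.22-fold for Apoa1 and 1.90-fold for Fga, the narrowest and the widest range among the members. Alb ranged from 5.98 (mouse 8) to 6.86 (mouse 10), both D1. Across the 19 liver arrays, as deviations from the dose means, Ttr and Ahsg had a Pearson r of 0.87 and Alb and Ahsg of 0.81, while Fga and Fgb had 0.19. These arrays share their slide and reference, and these coefficients are descriptions without a test.

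**Figure D3:**
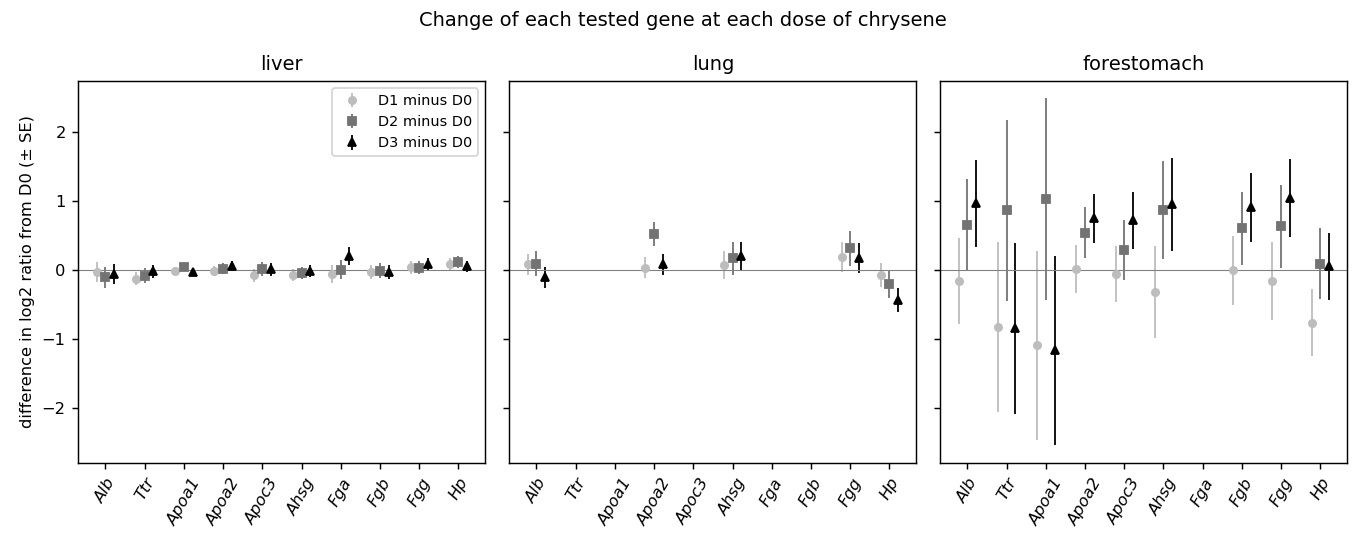
Difference in log2 ratio from D0 (points, with SE as lines) for each tested gene at D1, D2 and D3 in liver (10 genes), lung (5) and forestomach (9). Liver points lie within 0.21 of 0, the Hp point in lung lies at -0.43 at D3, and the forestomach errors reach 1.46.

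In lung, 5 members (Alb, Apoa2, Ahsg, Fgg, Hp) were well above background on at least 3 arrays and were tested, and 0 of 5 passed at any dose or for the trend. Of the 31450 probes tested in lung 0% passed at D1, 0% at D2, 0.127% at D3 and 0.169% for the trend. At an unadjusted P of at most 0.05 the counts were 0 of 5 at D1, 1 at D2 (Apoa2), 1 at D3 (Hp) and 1 for the trend (Hp). The shares of all probes were 5.88%, 6.12%, 16.2% and 17.3%. Ttr, Apoa1, Apoc3, Fga and Fgb were not tested in lung, since they were dim there.

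Hp was the 1 bright member in lung, and its D3 estimate lay below 0 without passing the test. Its log2 ratios were 6.60, 6.66, 6.27, 6.76 and 6.45 at D0 (mice 1 to 5) and 6.20, 6.28, 6.40, 5.81 and 5.88 at D3 (mice 16 to 20). At D1 they were 6.69, 6.58, 6.57, 6.62 and 5.90 (mice 6 to 10) and at D2 5.82, 6.49 and 6.73 (mice 12, 13 and 15). The D0 and D3 ranges overlapped. The D3 difference was -0.43 ± 0.18 (SE; 95% interval -0.80 to -0.06, unadjusted P = 0.0252), and with the adjustment over all probes P was 0.25. It lay below 0 on each slide, at -0.35 on slide 1 (2 arrays at D0 and 1 at D3), -0.65 on slide 2 (1 and 2) and -0.31 on slide 3 (2 and 2). The linear trend over dose steps gave a fitted change of -0.43 ± 0.16 from D0 to D3 (unadjusted P = 0.0145, adjusted P = 0.191). Under 28 alternatives the D3 difference ranged from -0.63 (Cy5 channel alone) to -0.10 (median centring) and passed under none.

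Mice 17 and 19, whose lung arrays carried skeletal muscle genes, had Hp values of 6.28 and 5.81 at D3. Without their lung arrays the D3 difference of Hp was -0.38 ± 0.20 (adjusted P = 0.540). The mean of the 8 alveolar type 2 genes was 5.45 to 5.75 at D0 and 5.39 to 5.77 at D3, and that of 5 airway genes 4.61 to 6.62 and 4.6 to 6.73. Neutrophils are known to store haptoglobin in granules, and the mean of 7 neutrophil genes was 1.70 to 2.27 at D0 and 1.66 to 2.41 at D3. The mean of 8 adipocyte genes was 0.48 to 2.45 (median 1.08) at D0 and 1.12 to 4.17 (median 2.72) at D3. That of 11 keratinocyte genes was -0.53 to -0.43 at D0 and -0.58 to 3.48 at D3, with 2.98 and 3.48 in mice 17 and 19. The part of these cell types in the Hp values was not tested. For Apoa2 at D2 the values were 0.51, 0.55 and 1.24 against 0.07 to 0.43 at D0, without overlap (difference 0.52 ± 0.17, adjusted P = 0.643). The other Apoa2 probe gave -0.05 there, and without mouse 15 the difference was 0.29. Across the 18 lung arrays the Apoa2 values followed most closely those of Tef (r = 0.98), Wee1 (0.94), Rev1 (0.92), Tspan4 (0.90) and Nr1d2 (0.86), looked up after the Apoa2 values were seen. Tef, Wee1 and Nr1d2 are known outputs of the circadian clock, and the hour of sampling was not tested.

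**Figure D4:**
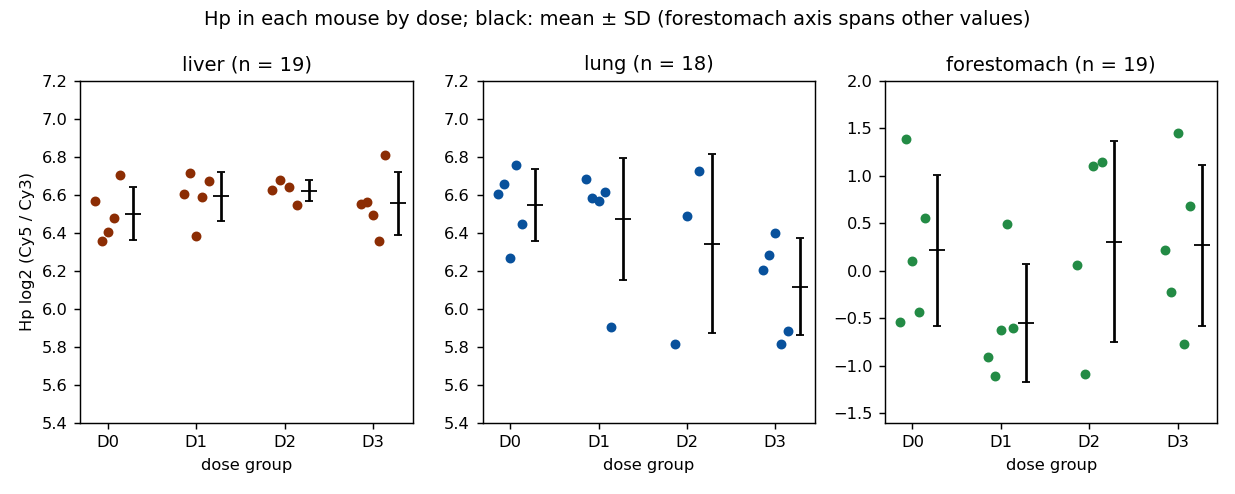
Log2 ratio of Hp in each mouse by dose in liver, lung and forestomach, with the mean ± SD in black beside each group; the liver and lung panels share 1 scale and the forestomach panel has another. Lung values at D3 lay between 5.81 and 6.40 and at D0 between 6.27 and 6.76, while liver stayed between 6.36 and 6.81.

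In forestomach the same genes spread over a far wider range from mouse to mouse, in all dose groups. Over 19 mice the log2 ratio ran up to 6.30 for Apoa1, 6.14 for Ttr, 4.00 for Alb, 4.13 for Ahsg and 3.8 for Fgg, from values not well above background near 0 in other mice. The number of arrays well above background was 11 for Apoa1, 12 for Ttr, 14 for Alb, 12 for Ahsg and 7 for Fgg. Apoa1 was well above background on 11 arrays, at 2.31 or more, and not on the other 8, at 0.27 or less. At D0 its values were 0.03, 6.30, 4.29, 0.04 and 4.00 (mice 1 to 5) and at D1 0.16, 0.14, 3.98, 0.27 and 4.65 (mice 6 to 10). At D2 they were 4.03, 6.16, 3.02 and 2.66 (mice 11, 12, 13 and 15) and at D3 0.22, 0.27, 0.13, 5.90 and 2.31 (mice 16 to 20). Both kinds of array thus occurred at D0, D1 and D3, while all 4 at D2 were high.

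Apoa1 and Ttr were high in the mice with high glandular stomach genes, and mouse 20 and, for Ttr, mouse 9 stood outside that pattern. In the 10 mice 2, 3, 5, 8, 10, 11, 12, 13, 15 and 19 the mean log2 ratio of the 10 glandular stomach genes was 5.72 to 7.28, and Apoa1 was high in each. Ttr ranged in these mice from 1.32 (mouse 15) to 6.14 (mouse 2). In the other 9 mice the list lay between 0.25 and 2.11 and Apoa1 at 0.27 or less, apart from mouse 20 with a list mean of 1.66 and Apoa1 at 2.31 and Ttr at 2.81. In mouse 9 Ttr was 0.96 with a list mean of 0.65. The part of glandular stomach tissue in these values was not tested. Apoa1 is known to be made by the intestine as well as by the liver.

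Alb, Ahsg, Apoc3, Fgb and Fgg followed a different order of mice. They were highest in mouse 20 (D3), mouse 13 (D2) and mouse 19 (D3). In mouse 20 Alb stood at 4.00, Ahsg at 4.13, Fgg at 3.8, Fgb at 2.85 and Apoc3 at 2.71. In mouse 13 the same genes stood at 3.13, 3.72, 2.40, 2.56 and 1.39, and in mouse 19 at 2.58, 2.86, 2.29, 2.55 and 1.87. In the other 16 mice Alb ranged from -0.18 to 2.03 and Fgg from -0.28 to 1.13. Fga, the dimmest member, reached 0.93 in mouse 20 and 0.41 in mouse 19 and was well above background in 2 mice.

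The mean of the 15 hepatocyte genes was 1.08 in mouse 20, 0.76 in mice 19 and 2, and 0.71 in mouse 13, and 0.58 or less in the other 15. In mouse 20, 10 of the 15 hepatocyte genes were well above background, in mouse 19 8 and in mouse 13 5. Mice 20 and 19 were on slide 3, with 50.8% and 47.2% of all spots well above background. Mouse 13 was on slide 2, with 30.1%. Cps1, Tdo2, Otc, Cyp7a1 and Hgd, which define hepatocytes, were well above background on 0 of the 19 forestomach arrays. In mouse 19 the mean of 9 pancreatic acinar genes was 4.85, against 1.67 or less in every other mouse. The part of liver or pancreas RNA in these arrays was not tested. The deviations of Alb and Ahsg from the dose means had a Pearson r of 0.97 over the 19 arrays, Fgb and Ahsg 0.97, and Apoa1 and Ttr 0.94, given as descriptions of arrays that share slides and a reference.

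**Figure D5:**
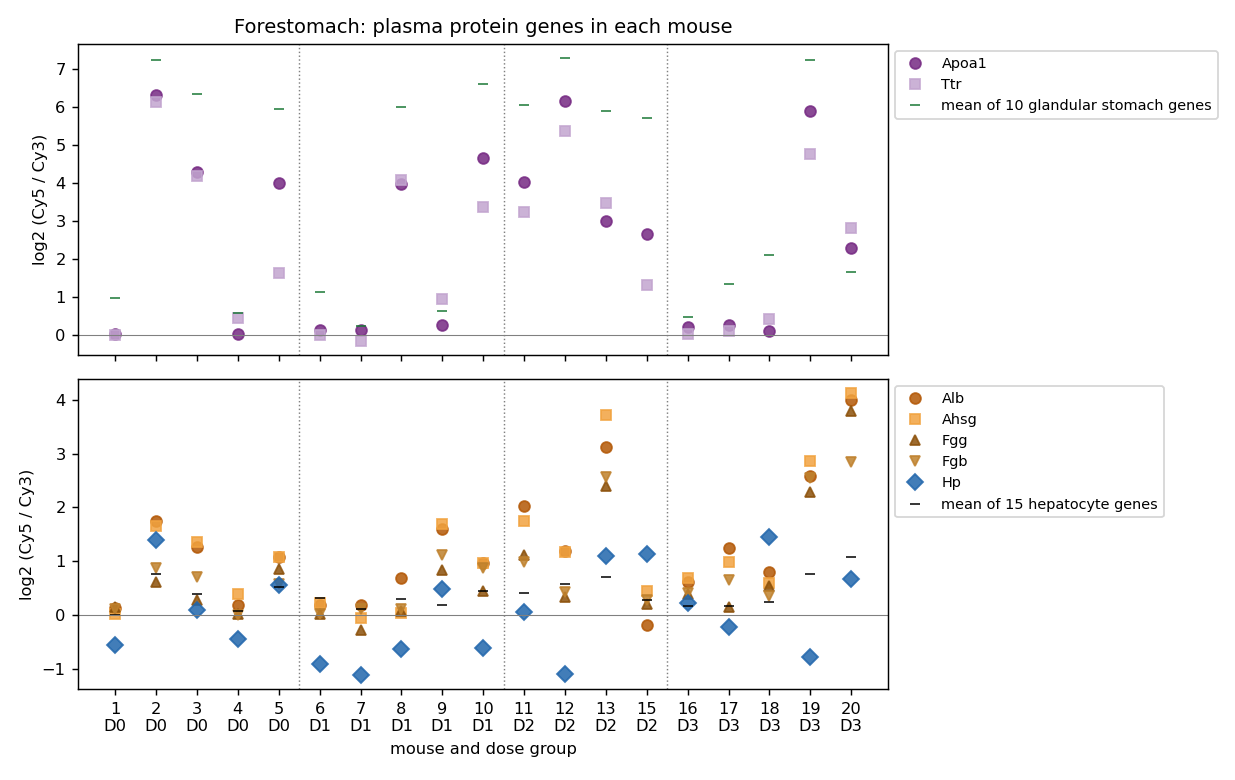
Log2 ratios in forestomach by mouse and dose group, with Apoa1, Ttr and the mean of 10 glandular stomach genes in the upper panel and Alb, Ahsg, Fgg, Fgb, Hp and the mean of 15 hepatocyte genes in the lower panel. Apoa1 is high in the mice with a high glandular stomach mean and in mouse 20, while Alb and its companions peak in mice 13, 19 and 20.

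Haptoglobin in forestomach followed neither order. It was highest in mice 18 (1.45), 2 (1.39), 15 (1.14) and 13 (1.11) and lowest in mice 7 (-1.11) and 12 (-1.09). The mean of 8 adipocyte genes in those 6 mice was 3.12, 4.53, 3.38, 0.81, 0.87 and 2.20. Adipocytes are known to make haptoglobin, and their part was not tested. Against the reference, whose Cy3 median for Hp was 881 on these arrays, the Cy5 median was 203.

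No member passed for chrysene in forestomach. Of 9 members tested (all but Fga), 0 passed at D1, D2, D3 or for the trend, where 0%, 0%, 0.00727% and 0.04% of the 27496 probes passed. At an unadjusted P of at most 0.05 the counts were 0, 0, 1 (Apoa2, 0.75 ± 0.35 at D3) and 3 (Apoa2, Fgb and Fgg for the trend), against 4.17%, 7.53%, 9.24% and 9.18% of all probes. At D3 the estimates were positive for 7 of the 9 members, such as Fgg 1.05 ± 0.57 (adjusted P = 0.614) and Alb 0.97 ± 0.63 (adjusted P = 0.706), and negative for Apoa1 (-1.17 ± 1.38) and Ttr (-0.85 ± 1.24). The median over the members was 0.75 and over all probes -0.0014. The 95% intervals together spanned -4.07 to 2.37, and that of Apoa1 alone reached from a 16.7-fold fall to a rise of 1.73 on the log2 scale. Without mouse 20 the D3 change of Alb was 0.44 and that of Fgg 0.46.

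Within the 3 slides of forestomach arrays the D3 estimates differed. For Fgg they were 0.11 on slide 1 (1 array at D0 and 2 at D3), 0.40 on slide 2 (2 and 1) and 2.30 on slide 3 (2 and 2). For Alb they were 0.81, 0.08 and 1.87, and for Apoa1 0.21, -2.04 and -1.04. Mice 19 and 20 are the D3 arrays of slide 3.

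The change at D3 was then compared between tissues, which are from the same mice. Between liver and lung 0 of the 5 members tested in both tissues passed, where 0% of the probes did, and 0 reached an unadjusted P of 0.05, as 5.25% of the probes did. The other 5 members were too dim in lung for a change there to be measured. Between liver and forestomach 0 of the 9 tested in both passed (0.0776% of the probes), and Apoa2 and Fgb reached an unadjusted P of 0.05 (9.93% of the probes). Between lung and forestomach 0 of the 5 tested in both passed (0.705% of the probes), and 0 of them reached an unadjusted P of 0.05 (12.9% of the probes). For Hp the D3 change was 0.05 in liver and -0.43 in lung, a difference of 0.48 ± 0.45 (adjusted P = 1.00 as rounded). This SE also carries the wider spread of Hp in forestomach. With only the slide 3 arrays of forestomach in the fit, Ahsg, Alb, Apoa2, Apoc3, Fgb and Fgg passed in both comparisons with forestomach, although Apoc3 and Fgb were dim in lung, at differences from -1.45 to -2.22 for liver, and the forestomach side then rests on 2 arrays at D0 and 2 at D3. In that fit the spread is shared with the less variable liver and lung.

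Other liver-secreted proteins and their regulators were not called for chrysene either. From 6 lists (acute phase proteins, apolipoproteins, coagulation factors, carrier proteins, hepatocyte transcription factors and the interleukin 6 pathway), 90 genes were on the array, and at D3 0 passed of 86 tested in liver, 57 in lung and 64 in forestomach. At an unadjusted P of at most 0.05, 2 were higher and 2 lower in liver, 4 and 9 in lung, and 4 and 0 in forestomach, where the shares of all probes in either direction were 4.79%, 16.2% and 9.24%. The median changes were 0.0027, -0.055 and 0.043, beside -0.0073, -0.026 and -0.0014 over all probes. The largest estimates in liver were Igfbp1, a fasting-regulated binding protein of insulin-like growth factors (-1.14 ± 0.63, adjusted P = 1.00 as rounded), and the acute phase serum amyloids Saa2 (1.10 ± 0.38, adjusted P = 0.964) and Saa1 (1.08 ± 0.48). Saa2 ranged from 6.11 to 8.24 at D0 and from 7.38 to 8.98 at D3, and the D3 range overlapped that of D0. Saa1 and Saa2 are near-identical genes, so their probes may share transcripts.

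In lung the largest were Fetub, a relative of fetuin-A (1.64 ± 0.70, adjusted P = 0.265), Lcn2, a siderophore-binding acute phase protein (-0.80 ± 0.38, adjusted P = 0.303), and the kininogen Kng1 (0.68 ± 0.47). Fetub lay between -0.14 and 0.16 in lung at D0. At D3 it was 3.81 and 4.29 in mice 17 and 19, whose lung arrays had keratinocyte means of 2.98 and 3.48, and 0.35, -0.37 and -0.13 in mice 16, 18 and 20. Without the arrays of mice 17 and 19 the difference in means, a comparison chosen after the data were seen, was 0.00030 for Fetub, -0.12 for Kng1 and -0.77 for Lcn2. In forestomach, a keratinised lining, the D0 mean of Fetub was 5.52. The lung arrays of mice 17 and 19 also carried skeletal muscle genes. The part of keratinised tissue or of muscle in the Fetub values was not tested. In forestomach the largest were the hepatocyte and gut factors Foxa2 (-1.59 ± 1.19), Hnf4a (-1.22 ± 1.11) and Foxa3 (-0.98 ± 0.96), none below an adjusted P of 0.761. The mean of the glandular stomach genes there was 0.59 to 7.24 (median 5.94) at D0 and 0.49 to 7.24 (median 1.66) at D3. The part of glandular tissue in these 3 estimates was not tested. Between tissues at D0, 15 of 17 acute phase genes, 11 of 11 apolipoproteins, 15 of 17 coagulation genes and 16 of 17 carriers were higher in liver than in lung, beside 21.1% of all probes (46% in either direction). Of these lists only 13, 3, 10 and 10 genes were well above background on at least 3 lung arrays, and nothing is read from the calls of the others, which came into the test through liver. The 2 lower in liver were Lcn2 (-2.16 ± 0.35) and the clotting factor F10 (-1.26 ± 0.21), while Saa3 (-0.07 ± 0.88), Pros1 (0.07 ± 0.11) and Afp (0.40 ± 0.34) did not pass. Of 14 hepatocyte transcription factors 9 were higher and 2 lower in liver, and of 11 interleukin 6 pathway genes 2 were higher and 7 lower. Of all 32708 probes, 8140 were lower in liver. Only 10 of the factors were well above background on at least 3 lung arrays, and only 10 of the pathway genes on at least 3 liver arrays. Nothing is read from the calls of the others.

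The genes whose deviations from the dose means were most like those of the members differed by tissue. Over the 19 liver arrays the mean of the 10 members was followed most closely by Trf (r = 0.95), Serpina1a (0.95), Zfp628 (0.91), Ambp (0.91) and Mup2 (0.90). For the mean of the fibrinogen chains they were Ces3a (0.91), Rhot2 (0.88), Pemt (0.87), Apom (0.86) and Cyp2f2 (0.86). Over the 18 lung arrays the mean of the 5 tested members was followed by genes that included Pemt (0.88), Ankrd37 (0.86), Hps5 (0.85) and Wdr31 (0.83). Over the 19 forestomach arrays the mean of the 9 tested members was followed by Fabp1 (0.96), Ambp (0.96), Gc (0.94), Serpina1a (0.90) and Serpina1d (0.90). Members of the Serpina1 and Mup families are close copies whose probes may share transcripts. These r are ranks out of all named genes over arrays that share slides, a reference and a loess fit, and they carry no test.

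Looked up after its values were seen, Hp in lung was followed most closely by Elapor1 (0.94), Pcgf5 (0.93), Cbr2 (0.92), Cyp2f2 (0.92) and Clic6 (0.88), of which Cbr2 and Cyp2f2 are known from club cells of the airway. Apoa1 in forestomach was followed by Hpn (0.99), Sctr (0.99), Prom1 (0.99 as rounded), Adamdec1 (0.98) and Muc1 (0.98). Alb in forestomach was followed by Serpina1d (0.97), Mup20 (0.96), Serpina1a (0.96), Apoh (0.95) and Mup5 (0.95).

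Apoa2 and Fga have a further probe each. The other Apoa2 probe had a median log2 ratio of 6.78 in liver, -0.10 in lung and 1.03 in forestomach, beside 4.50, 0.29 and 0.28 for the probe used. The 2 probes thus set lung and forestomach in different order, with differences at D0 of 0.24 and -1.10 between lung and forestomach. The other Fga probe had 6.21, -0.08 and 0.06, beside 7.84 in liver and 0.05 in forestomach for the brighter one. Both probes of each gene placed liver highest.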

How the data were processed

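Total RNA from random sections of lung, liver and forestomach was labelled with Cy5 and hybridised with Cy3-labelled universal mouse reference RNA to 2-colour Agilent arrays, 1 per mouse and tissue and with no dye swap. The deposited scanner files hold intensity per spot and channel, read with Feature Extraction 10.7.3.1, and the flags of the scanner software. The deposited value table holds log2 ratios, which the authors made by a loess fit within each array. Set against ratios computed here from the intensities, each array's column correlated at 0.977 to 0.998 with a slope of 0.952 to 0.996, and the array medians lay between -0.0456 and -0.0201.

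The log2 ratios were used as deposited for 55681 probes, of which 26413 (47.4%) were named through the RefSeq accession of the probe. A probe was tested where Cy5 was well above background on at least 3 arrays of the tissue, or of either tissue in a comparison of tissues. Tests were two-sided in limma 3.58.1 (R 4.3.3), checked on simulated data, with Benjamini-Hochberg adjustment over all probes tested, and a call needed an adjusted P of at most 0.05 and a change of at least 1.5-fold. Doses were fitted within a tissue, and tissues were compared in 1 fit over all groups. Each tissue was on its own slides, which are numbered within the tissue. A difference between tissues therefore cannot be told apart from a difference between slides. The MAANOVA test of the study's methods was not run. The authors' own comparisons were not used.

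All 10 members are reported. From the lists, the 3 genes per tissue with the largest D3 change are named, and from all named genes the 5 most correlated with the members' mean. Of these, 1 gene in lung is not reported here. Members and lists were chosen with earlier results of these data known. Alternatives were other normalizations, filters, probes, slide or mouse as a block, arrays left out and, chosen after the data were seen, the Cy5 channel alone. The number of arrays, 3 to 5 per group, limits the precision.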

Additional observations from a re-analysis of the deposited data

Results flagged for a closer look

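Of 110 groups of 4 or 5 mice, 4 held a value whose gap to its neighbour took up most of the range of the group, where chance gives about 1 in 20. Hp in lung at D1 was 5.90 in mouse 10, below the next value of 6.57. Fgb in lung at D1 was 0.55 in the same mouse, above the next value of 0.18. Ttr in liver at D1 was 6.24 in mouse 8, below the next value of 6.67. Apoa2 in liver at D3 was 4.40 in mouse 18, below the next value of 4.52.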

How the results depend on the processing

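The counts of members called were 0 for every dose, trend and D3 comparison between tissues under each alternative run, except with only the slide 3 arrays of forestomach, when 6 members were called for liver and 6 for lung against forestomach. In that setting, where D2 has 1 forestomach array assumed to vary like the other groups, 7 members differed between lung and forestomach at D0. Apoa1 then differed between liver and forestomach by 1.16 without passing. With the requirement of a signal well above background on every array, 1 member was called between lung and forestomach, as fewer were tested. Leaving out 1 mouse at a time gave 10 to 10 members for liver against forestomach, 9 to 9 for liver against lung, 2 to 3 for lung against forestomach and 0 to 0 for the others. With the mouse as a replicate block (consensus correlation 0.0257) the counts between tissues at D0 stayed at 9, 10 and 3, and no call changed. The Cy5 channel alone, chosen after the data were seen, gave 10 members for liver against lung. Median centring moved the median of all probes by -0.62 between liver and lung, 0.95 between lung and forestomach, 0.17 between liver and forestomach, 0.22, 0.12 and 0.11 in lung at D1, D2 and D3, and 0.18 in forestomach at D3. Under it Apoa2 was higher in lung than in forestomach by 2.27. The cause of these moves was not tested. Signals near the scanner floor limit 6 of the members in lung at D0 to bounds.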
